A study of Homo sapiens with 7 samples.

Results

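The middle gene body, from 10 to 30 kb downstream of position 0, was examined in average gene profiles of nascent transcription from MRC5VA cells, an immortalised human fibroblast line. The stretch was divided into 40 bins of 500 bp, out of 244 such bins in the whole profile and 200 between 0 and 100 kb. The bins were chosen by distance alone. Position 0 was taken as the transcription start, since the profiles peak just downstream of it. Signal came from global run-on sequencing (GRO-seq), in which engaged RNA polymerases in isolated nuclei extend their transcripts briefly with a brominated nucleotide and the labelled RNA is captured and sequenced. One group was Untreated, labelled 0 h. The other groups (UV-2h, UV-5h, UV-8h, UV-10h, UV-12h and UV-24h) were cells of the same line given ultraviolet C light (UVC) at 15 J per square metre, named by the hours that passed before nuclei were isolated. Each group was 1 library, so no difference between groups could be set against a spread between cultures, and none has a test. No gene is named in an average profile, so the identity of the cells could not be checked against marker genes.

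UVC makes lesions in DNA, chiefly dimers of neighbouring pyrimidines, at which an elongating RNA polymerase II stalls. The farther a polymerase has to travel, the more likely it is to meet a lesion in the strand it reads. Stalled polymerases recruit transcription-coupled repair, which starts with the CSB protein, and the return of RNA synthesis after UV is a classical measure of that repair.

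In human annotation most of this distance is intron. Of 20098 protein-coding genes outside the Y chromosome and mitochondrial genome in GENCODE v44lift37 (GRCh37), 14863 (74.0%) span at least 10 kb, 9499 (47.3%) at least 30 kb and 3660 (18.2%) at least 100 kb. In the genes that span at least 30 kb, 5.45% of the bases between 10 and 30 kb from the gene's start are exonic, and 2613 of these genes (27.5%) have no exon there. In those that span at least 100 kb the exonic part is 1.84%. The list of genes averaged in the profiles is not given in the sources used here, so these figures describe the annotation and not the profiled genes.

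Depth over the window ran from 2648770 to 5622058 reads per library, and from 54947 to 155115 reads per bin, as recovered from the values. The libraries at 10, 12 and 24 h after UVC were deeper than the other 4. Intervals given below cover counting error only. They are narrow at this depth and leave out the differences between genes and between cultures. Reads counted more than once, in overlapping genes or as PCR duplicates, would make them narrower than the true counting error. In an average over the genes of a bulk culture, fewer cells transcribing a stretch and fewer polymerases per cell cannot be told apart.

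In untreated cells the signal varied little along the middle gene body. The mean signal was 3.56 in the deposited units, an average read coverage per base on a linear scale, and the 40 bins ranged only from 3.50 to 3.67. The bin at 10 to 10.5 kb and the bin at 29.5 to 30 kb had the same level, 3.66. A straight line through the 40 bins had a slope of -0.0021 ± 0.0013 (SE over bins) signal units per kb, whose 95% interval included 0. That line averaged a shallow fall from 10 to 20 kb (-0.016 ± 0.0018 per kb) and a shallow rise from 20 to 30 kb (0.011 ± 0.0018 per kb). Bins share genes and reads and are not replicates, so this standard error describes scatter along the line and no more.

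After UVC the same distance became a downhill slope, and it was steepest at 2 h. In UV-2h the signal went from 5.10 in the bin at 10 to 10.5 kb to 3.05 in the bin at 29.5 to 30 kb. In UV-5h it went from 4.73 to 3.48, in UV-8h from 4.47 to 3.58, in UV-10h from 4.54 to 3.77 and in UV-12h from 4.60 to 3.94. UV-24h had 3.86 and 3.74 in these bins, a shape near that of Untreated but a little higher throughout. On the deposited scale all 6 UV libraries thus lay above Untreated at the near end of the window, whereas at the far end 3 lay below it and 3 above it.

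**Figure D1:**
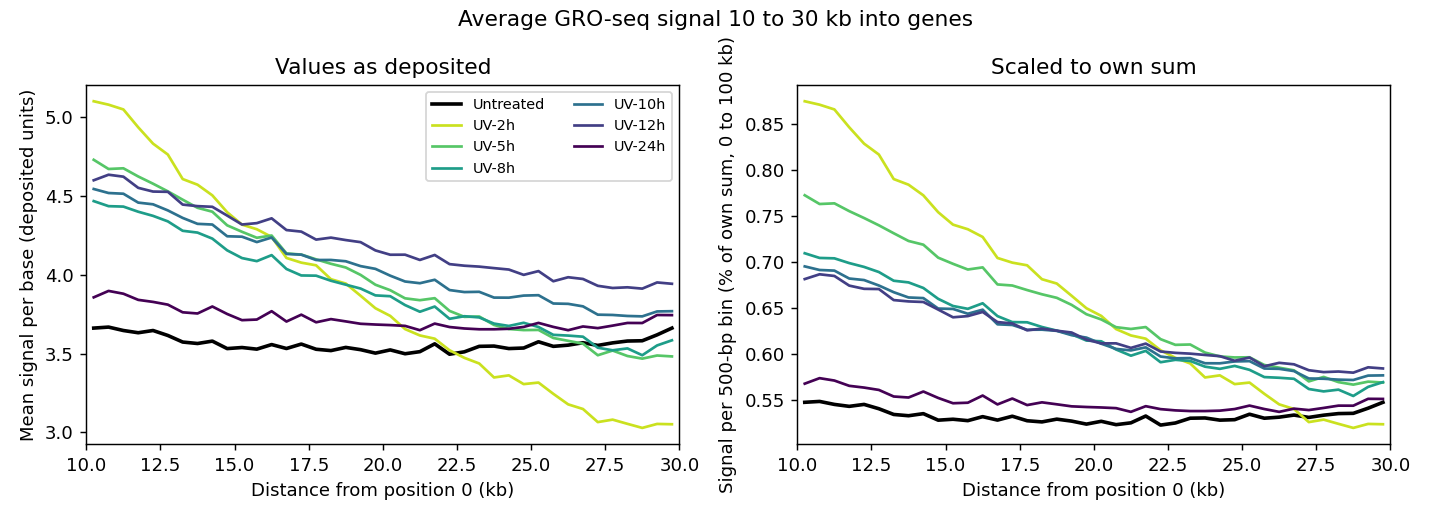
Mean GRO-seq signal in 500-bp bins from 10 to 30 kb for the 7 libraries, as deposited (left) and as the percentage of each library's own sum from 0 to 100 kb (right). Untreated (black) ranges from 3.50 to 3.67 on the left, UV-2h descends from 5.10 to 3.05, and UV-24h lies just above Untreated.

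The drop across the window was measured within each library as the level at 25 to 30 kb relative to the level at 10 to 15 kb, which needs no scaling between libraries. It was 99.1% in Untreated (95% counting interval 98.8 to 99.5). It was 65.2% in UV-2h (65.0 to 65.5), 77.8% in UV-5h (77.5 to 78.0) and 82.3% in UV-8h (82.1 to 82.6). It was 85.7% in UV-10h (85.4 to 85.9), 87.5% in UV-12h (87.3 to 87.7) and 96.6% in UV-24h (96.4 to 96.9). The order of the libraries was that of time after UVC, no neighbouring pair in it had overlapping counting intervals, and UV-24h stayed below Untreated by more than counting error.

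Expressed as a share of the library's own mean in the window, the slope of the signal was -2.87% per kb in UV-2h, -1.69% in UV-5h, -1.29% in UV-8h, -1.04% in UV-10h, -0.891% in UV-12h and -0.230% in UV-24h. The corresponding figure for Untreated was -0.058% per kb. Among the 39 steps from a bin to the next one outwards, 35 went down in UV-2h, 32 in UV-5h and in UV-8h, 31 in UV-10h, 29 in UV-12h and 24 in UV-24h, against 17 in Untreated. The levels were steeper between 10 and 20 kb than between 20 and 30 kb in the UV libraries at 2 to 12 h, for instance -0.143 and -0.076 signal units per kb in UV-2h. Untreated bent in the same sense, and so did UV-24h, from -0.021 to 0.0051.

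After division by Untreated little of this bend was left. The log2 ratio to Untreated was close to a straight line across the window, with r squared from 0.987 to 0.997 in the UV libraries at 2 to 12 h and 0.810 in UV-24h. Its slope was -0.040 ± 0.00033 log2 per kb in UV-2h (SE over 40 bins), which is a ratio that decreased by 2.75% with each kilobase. It was -0.023 ± 0.00022 in UV-5h, -0.018 ± 0.00026 in UV-8h, -0.014 ± 0.00020 in UV-10h and -0.012 ± 0.00022 in UV-12h. In UV-24h it was small, -0.0025 ± 0.00019. These standard errors describe scatter among bins, which are not replicates, so they do not test a slope against 0. The slope of the log2 ratio does not depend on how a library was scaled, but it was steeper after subtraction of a background (-0.074 in UV-2h and -0.0067 in UV-24h). In UV-2h it was nearly the same from 10 to 20 kb (-0.040 ± 0.00071) and from 20 to 30 kb (-0.038 ± 0.00096). In UV-12h it was shallower from 10 to 20 kb (-0.0099 ± 0.00059) than from 20 to 30 kb (-0.013 ± 0.00043).

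The ratio sloped differently on either side of the window. Between 30 and 60 kb the log2 ratio had a slope of -0.0068 ± 0.00055 per kb in UV-2h, -0.0077 in UV-5h, -0.0059 in UV-8h, -0.0068 in UV-10h, -0.0069 in UV-12h and -0.00084 in UV-24h, so the ratio declined less steeply there than in the middle gene body in 6 of 6 UV libraries. Between 1 and 10 kb no single line described the ratio. In UV-2h it rose from 1.23 in the bin at 1 to 1.5 kb to 1.53 in the bin at 4 to 4.5 kb and had come down to 1.40 in the bin at 9.5 to 10 kb, so the decline had begun before the window. From 5 to 10 kb the slope of the log2 ratio was -0.024 ± 0.0013 per kb in UV-2h, and between -0.0010 and 0.0040 in the other UV libraries, with standard errors of at most 0.0015. These ratios share a single untreated library, and the difference between the stretches was not tested.

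**Figure D2:**
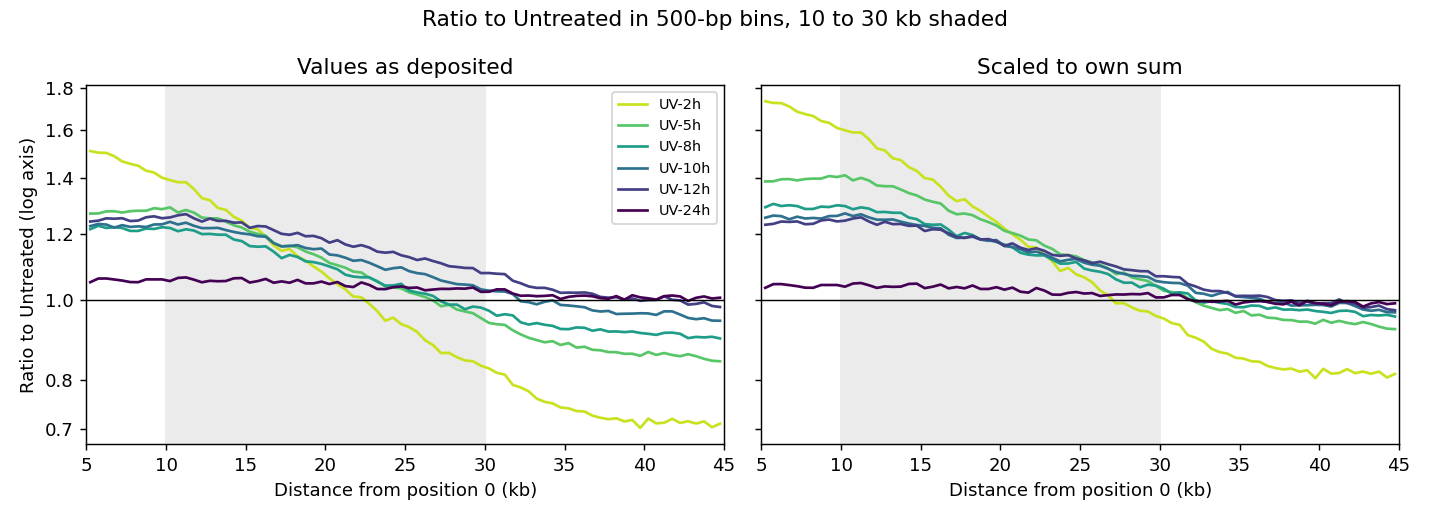
Ratio to Untreated in 500-bp bins from 5 to 45 kb on a log axis for the 6 UV libraries, as deposited (left) and after scaling to own sum (right), with 10 to 30 kb shaded and the line at 1 marking equality. As deposited, UV-2h crosses 1 at 22.5 kb, UV-5h at 26.5 kb and UV-8h at 27 kb, and the other libraries stay above 1 throughout the shaded window.

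The easing of the ratio's slope followed the order of time. Over the 6 UV libraries the slope of the log2 ratio had a Spearman's rho of 1 with time (p = 0.0028 in an exact two-sided permutation test, adjusted p = 0.0056), and a Pearson's r of 0.89 (exact two-sided permutation p = 0.026, adjusted p = 0.032). A rho of 1 gives the smallest p that the rank test allows with 6 libraries. Adjustment was by the Benjamini-Hochberg method over 6 p-values from 3 relations. The window and measures were chosen with earlier results of these data known. The p-values of all 3 relations are therefore descriptive and not confirmatory. With UV-2h and UV-24h left out, the times most distant from the median, r was 0.99 over 4 libraries. Within the 3 less deep UV libraries (2, 5 and 8 h) and within the 3 deeper ones (10, 12 and 24 h) rho was 1 as well, where 3 libraries cannot give an exact two-sided permutation p below 0.33. The 6 slopes have 1 untreated library in common. The order by time is related to that of the distal signal share of the same profiles and is not independent of it.

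On the deposited values the window held more signal than Untreated at every time after UVC. Its mean was 3.87 in UV-2h, 3.99 in UV-5h, 3.92 in UV-8h, 4.06 in UV-10h, 4.200 in UV-12h and 3.72 in UV-24h. Counting error of these means, as a 95% interval, was no wider than plus or minus 0.0047. The excess over Untreated was 8.61%, 12.0%, 9.90%, 13.9%, 17.9% and 4.47% in that order. It was therefore highest at 12 h and lowest at 24 h, and UV-8h lay below both UV-5h and UV-10h. In log2 units the ratio was 0.12 in UV-2h, 0.16 in UV-5h, 0.14 in UV-8h, 0.19 in UV-10h, 0.24 in UV-12h and 0.063 in UV-24h, with counting standard errors of 0.0011 to 0.0012. The direction depends on the scale of the libraries, which the sources used here do not give. With a background subtracted (the lowest 1-kb mean of each profile) it was 0.66, 0.68, 0.61, 0.66, 0.71 and 0.019 in the same order. That background lay upstream in Untreated and from 118000 or 119000 bp on in the UV libraries, so it was not the same region. The amount subtracted was 2.22 in Untreated, 1.74 to 2.00 in the UV libraries at 2 to 12 h and 2.36 in UV-24h. Taking less from a UV library than from Untreated raises its ratio by itself. When profiles were scaled to the kilobase farthest upstream, the ratio was negative in UV-8h (-0.17), UV-10h (-0.053) and UV-24h (-0.17).

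As a share of the library's own signal between 0 and 100 kb, the window was above Untreated at every time. Shares have a fixed total, so a lower share farther out raises that of the window without any gain there. In UV-2h the share was 25.8% from 30 to 60 kb (31.4% in Untreated) and 26.9% from 60 to 100 kb (34.1% in Untreated). The share of the window was 21.3% in Untreated (95% Wilson interval 21.28 to 21.32). It was 26.6% in UV-2h (26.52 to 26.58) and 26.1% in UV-5h (26.05 to 26.10). It was 24.88% in UV-8h (24.85 to 24.90), 24.85% in UV-10h (24.83 to 24.87) and 24.89% in UV-12h (24.87 to 24.91), and it was 21.9% in UV-24h (21.89 to 21.93). The libraries from 8 to 12 h were nearly level, and the counting interval of UV-8h overlapped those of UV-10h and UV-12h. The share thus stood 5.25 percentage points above Untreated at 2 h, 3.57, 3.54 and 3.59 points above it at 8, 10 and 12 h, and 0.609 points above it at 24 h.

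**Figure D3:**
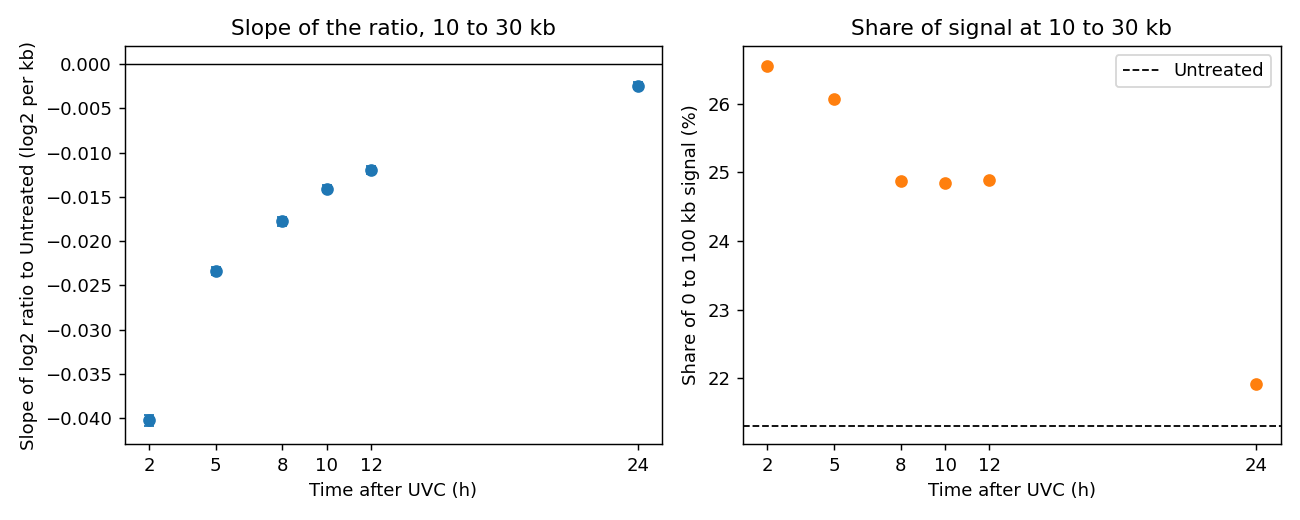
Slope of the log2 ratio to Untreated over the 40 bins (left, log2 per kb, bars of the 95% interval from the SE over bins) and share of the 0 to 100 kb signal lying at 10 to 30 kb (right, percent, bars of the 95% Wilson interval), each against hours after UVC; most bars are smaller than the points. The slope goes from -0.040 at 2 h to -0.0025 at 24 h in the order of time, while the share has a plateau near 24.9% at 8, 10 and 12 h.

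The rank relation of this share with time did not pass 0.05 (rho -0.83, with p = 0.058 in an exact two-sided permutation test and adjusted p = 0.058), and UV-12h had a higher share than UV-8h and UV-10h. Without UV-12h rho was -1 (exact two-sided permutation p = 0.017 over 5 libraries). Since UV-12h was the library that broke the order, this value is a description and no test of the relation. Leaving out any other UV library gave a rho of -0.90 to -0.70 (exact two-sided permutation p from 0.083 to 0.23). Over all 6 UV libraries Pearson's r was -0.99 (exact two-sided permutation p = 0.0056, adjusted p = 0.0083). Without UV-2h and UV-24h r was -0.83 over 4 libraries. The rank coefficient was -1 within the libraries at 2, 5 and 8 h and -0.50 within those at 10, 12 and 24 h (exact two-sided permutation p = 0.33 and 1).

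Excess and deficit were then placed within the window. A bin was called in excess where its ratio to Untreated was above 1. On the deposited values 25 of the 40 bins were in excess in UV-2h, where 22% of the 200 bins between 0 and 100 kb were. In UV-5h 33 of 40 were, against 25.5% of the 200 bins, and in UV-8h 34 of 40, against 26.5%. All 40 were in excess in UV-10h (31.5% of the 200), in UV-12h (39.5%) and in UV-24h (54%). The remaining 15, 7 and 6 bins of the first 3 times lay without a break at the far end of the window, from 22.5 kb on in UV-2h, from 26.5 kb on in UV-5h and from 27 kb on in UV-8h.

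A larger difference, of at least 1.1-fold above Untreated, was found in 18 of the 40 bins in UV-2h (18% of the 200 bins), 22 in UV-5h (19.5%), 20 in UV-8h (18.5%), 26 in UV-10h (22%) and 35 in UV-12h (26%). It was found in none of the 40 in UV-24h (1.5% of the 200). At least 1.1-fold below Untreated were 8 of the 40 bins in UV-2h, where 74.5% of the 200 bins were. In UV-5h, UV-8h, UV-10h and UV-12h none of the 40 were that low, although 68.5%, 58%, 47.5% and 38.5% of the 200 bins were, and in UV-24h 0% of the 200 were. The middle gene body thus held a higher share of bins in excess and a lower share in deficit than the whole profile up to 100 kb at 2 to 12 h. This was not particular to the window. From 1 to 10 kb the mean ratio in UV-2h was higher still, 1.45 against 1.09 in the window.

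The bin with the highest ratio lay at the near end in every UV library. It was the bin at 10 to 10.5 kb in UV-2h (1.39), UV-5h (1.29), UV-8h (1.22) and UV-10h (1.24), and the bin at 11 to 11.5 kb in UV-12h (1.27) and UV-24h (1.06). The lowest ratio was in the bin at 29.5 to 30 kb in UV-2h (0.833), UV-5h (0.951), UV-10h (1.03), UV-12h (1.08) and UV-24h (1.02), and in the bin at 28.5 to 29 kb in UV-8h (0.974). Just outside the window the ratio continued without a step. From 9 to 10 kb it was 1.41 in UV-2h and 1.06 in UV-24h, and from 30 to 31 kb it was 0.822 and 1.03.

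Summed over bins, the excess in UV-2h amounted to 12.3% of the untreated signal of the window, and the deficit to -3.74% of it. UV-5h had a nearly equal excess, 12.4%, with a deficit of -0.447%, and UV-8h an excess of 10.1% with a deficit of -0.242%. The higher window mean of UV-5h than of UV-2h thus came with a smaller deficit and a nearly equal summed excess.

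The crossing distance, defined as the start of the earliest bin beyond 1 kb from which 5 bins in a row lay under Untreated, fell inside the window at the 3 earliest times on the deposited values. It was 22.5 kb in UV-2h (21.5 to 22.5 when every bin's ratio was moved to the lower or the upper end of its 95% counting interval), 26.5 kb in UV-5h (26 to 27) and 27 kb in UV-8h (26.5 to 27.5). The change of sign was gradual. The bins before and after it had ratios of 1.01 and 0.989 in UV-2h, 1.01 and 0.998 in UV-5h, and 1.01 and 0.996 in UV-8h. The straight line through the 40 log2 ratios reached 0 at 22.5 kb in UV-2h, 26.7 kb in UV-5h and 27.5 kb in UV-8h.

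At later times the crossing had left the window. It was 32 kb in UV-10h (32 to 34.5), 42 kb in UV-12h (37 to 44) and 65.5 kb in UV-24h (42 to 76.5). Background subtraction changed which libraries crossed inside the window. The crossings were then 27 kb in UV-2h, 33 kb in UV-5h, 44.5 kb in UV-8h, 53 kb in UV-10h, 58.5 kb in UV-12h and 23 kb in UV-24h. On the deposited values, the ranges of UV-5h and UV-8h overlapped, as did those of UV-12h and UV-24h, so these neighbours cannot be ordered beyond counting error. Over the 6 UV libraries the crossing on deposited values had a rho of 1 with time (exact two-sided permutation p = 0.0028, adjusted p = 0.0056) and an r of 0.98 (exact two-sided permutation p = 0.0014, adjusted p = 0.0056). Without UV-2h and UV-24h r was 0.88 over 4 libraries. Within the libraries at 2, 5 and 8 h and within those at 10, 12 and 24 h rho was 1 (exact two-sided permutation p = 0.33 each). The rho of 1 over all 6 libraries fixed these values of rho in advance. The relation of the deposited crossing with time was lost under either change that follows. With crossings of scaled profiles rho was 0.64 (exact two-sided permutation p = 0.18), and with background-subtracted profiles it was 0.14 (exact two-sided permutation p = 0.80). Both losses rested on UV-24h. Leaving it out was an alternative added after the data were seen. Without it rho over 5 libraries was 0.97 with scaled profiles (exact two-sided permutation p = 0.033) and 1 with background subtracted (exact two-sided permutation p = 0.017). Since the library that broke the order was the one removed, these values are a description and no test of the relation.

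After each profile was divided by its own sum from 0 to 100 kb, the excess covered more of the window. The own sum was 0.871 times that of Untreated in UV-2h, 0.915 in UV-5h, 0.941 in UV-8h, 0.977 in UV-10h, 1.009 in UV-12h and 1.016 in UV-24h, so the scaling raised the earliest libraries most. In UV-2h 34 of the 40 bins were then above Untreated (26.5% of the 200 bins), and the 6 bins from 27 kb on were below it. All 40 bins were above Untreated in UV-5h (31.5% of the 200), UV-8h (32%), UV-10h (36%), UV-12h (36.5%) and UV-24h (32%). The crossing was 27 kb in UV-2h (27 to 28), the only one inside the window. It lay at 32 kb in UV-5h, 32 kb in UV-8h, 36.5 kb in UV-10h, 37 kb in UV-12h and 32 kb in UV-24h (31.5 to 45).

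On this scale the window mean was 1.25 times that of Untreated in UV-2h, 1.22 in UV-5h, 1.17 in each of UV-8h, UV-10h and UV-12h, and 1.03 in UV-24h. The highest excess was thus found at 2 h and not, as on the deposited values, at 12 h. A scaled excess is relative to the library's own sum, which was lowest in UV-2h. The scaled ratio ran from 1.599 in the bin at 10 to 10.5 kb to 0.956 in the bin at 29.5 to 30 kb in UV-2h, and from 1.04 to 1.01 in the same bins in UV-24h.

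The 4 stretches of 5 kb showed where along the window the libraries differed from each other. At 10 to 15 kb the deposited signal was 3.61 in Untreated, 4.78 in UV-2h, 4.54 in UV-5h, 4.34 in UV-8h, 4.41 in UV-10h, 4.52 in UV-12h and 3.82 in UV-24h. The level was thus highest at 2 h, lowest among the UV libraries from 2 to 12 h at 8 h, and only 1.06 times Untreated at 24 h. At 15 to 20 kb the signal was 3.53 in Untreated, 4.07 in UV-2h, 4.12 in UV-5h, 4.003 in UV-8h, 4.13 in UV-10h, 4.26 in UV-12h and 3.71 in UV-24h. Here the ratio to Untreated stayed between 1.13 and 1.21 from 2 to 12 h.

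At 20 to 25 kb the deposited signal was 3.53 in Untreated, 3.51 in UV-2h, 3.77 in UV-5h, 3.75 in UV-8h, 3.91 in UV-10h, 4.07 in UV-12h and 3.67 in UV-24h. UV-2h lay below Untreated by a ratio of 0.994 (95% counting interval 0.991 to 0.997), and the other UV libraries lay above it. At 25 to 30 kb the signal was 3.58 in Untreated, 3.12 in UV-2h, 3.53 in UV-5h, 3.57 in UV-8h, 3.78 in UV-10h, 3.95 in UV-12h and 3.69 in UV-24h. The ratio was 0.872 in UV-2h and 0.987 in UV-5h. In UV-8h it was 0.998 (0.994 to 1.001), a difference not detectable at this depth, and it was 1.06 in UV-10h, 1.104 in UV-12h and 1.03 in UV-24h. The far end of the window thus rose above the untreated level by 10 h and was nearer to it again at 24 h, on the deposited scale.

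**Figure D4:**
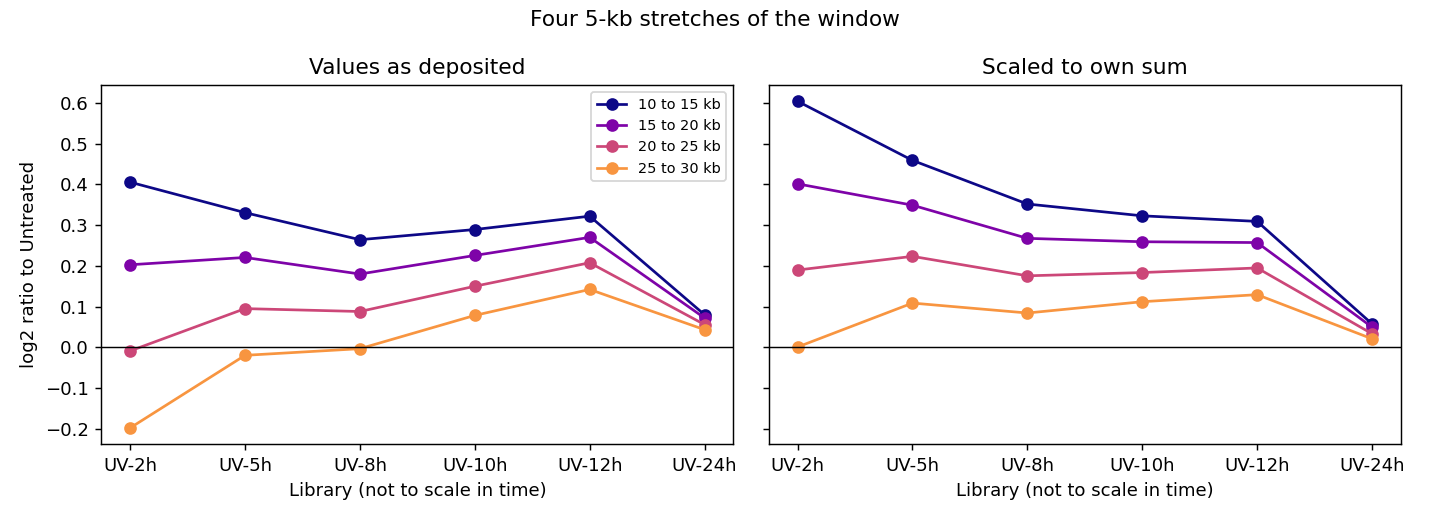
log2 ratio to Untreated for the 4 stretches of 5 kb in the 6 UV libraries, as deposited (left) and scaled to own sum (right), with libraries evenly spaced and not to scale in time. On the left the stretches spread from 0.41 (10 to 15 kb) to -0.20 (25 to 30 kb) in UV-2h and lie between 0.080 and 0.043 in UV-24h.

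Scaling to own sum shifts all stretches of a library by the same amount on the log2 scale, so it changed their course over time and not the spread among them. The log2 ratio at 10 to 15 kb was then 0.60 in UV-2h, 0.46 in UV-5h, 0.35 in UV-8h, 0.32 in UV-10h, 0.31 in UV-12h and 0.058 in UV-24h, each lower than the one before. At 25 to 30 kb it was 0.00095 in UV-2h, within counting error of 0, then 0.11 in UV-5h, 0.084 in UV-8h, 0.11 in UV-10h, 0.13 in UV-12h and 0.021 in UV-24h. The near end therefore came down and the far end was higher at 5 to 12 h than at 2 h, and at 24 h both were close to Untreated. At 20 to 25 kb the log2 ratio stayed between 0.18 and 0.22 from 2 to 12 h.

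The neighbouring stretches differed from the window in level. From 1 to 10 kb the deposited ratio to Untreated was 1.45 in UV-2h, against 1.09 in the window, but from 5 to 12 h it was 1.21 to 1.24, against 1.099 to 1.18 in the window. From 30 to 60 kb it was 0.716 in UV-2h, 0.846 in UV-5h, 0.897 in UV-8h, 0.946 in UV-10h and 0.984 in UV-12h, all below 1 where the window mean was above 1. In UV-24h it was 1.01 from 30 to 60 kb, 1.04 in the window and 1.07 from 1 to 10 kb.

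Small departures from the straight line were shared by the libraries. A line was fitted to the log2 level of the 40 bins of each library. The bins departed from it with an SD of 1.0002% to 1.74%, where counting alone gives 0.267% to 0.389%. In 29 of the 40 bins the departure had the same direction in all 7 libraries, above the line in 12 and below it in 17. The bins with the highest mean departure were those at 29.5 to 30 kb (3.43% above the line, from 2.45% to 5.36%) and at 29 to 29.5 kb (2.62% above, from 2.10% to 4.01%). The lowest were those at 20.5 to 21 kb and 21 to 21.5 kb, each with a mean departure of -1.55%. Over the 40 bins the departures of a pair of libraries had a Pearson correlation of 0.84 to 0.95 (median 0.91 over 21 pairs), given as a description, since the libraries would share the profiled genes and the bend described above, and neighbouring bins share reads. The departures of Untreated and of the UV libraries thus had a common pattern beneath slopes of the log2 level of -0.00083 per kb in Untreated and -0.041 to -0.0033 in the UV libraries.

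**Figure D5:**
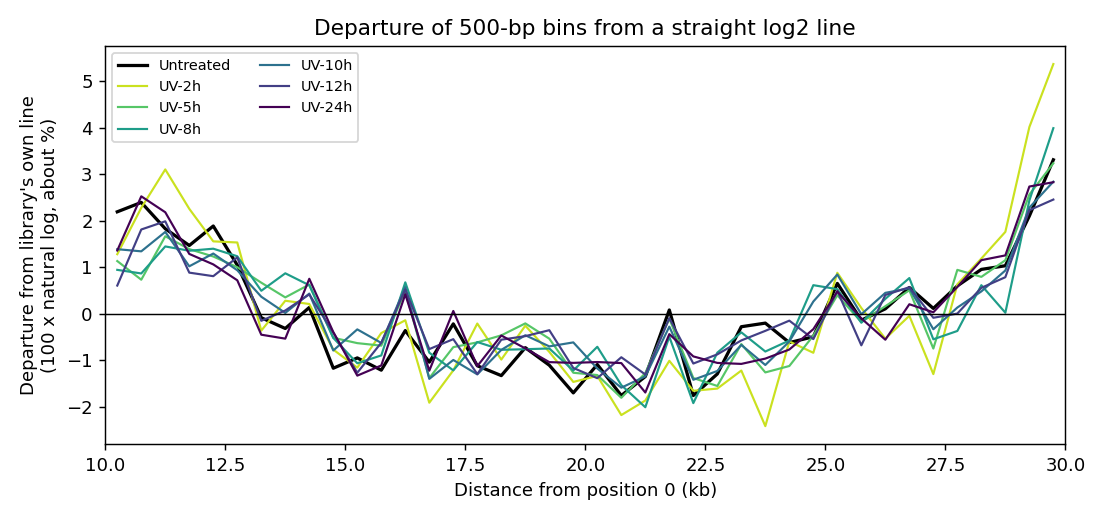
Departure of each 500-bp bin from its library's own straight line through the log2 levels, in 100 times natural log units (about percent), against distance for the 7 libraries. The curves run together, with 29 of 40 bins on the same side of the line in all 7 libraries and the highest values at 29 to 30 kb.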

How the data were processed

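Average gene profiles of 7 GRO-seq libraries were used, 1 per condition, mapped to conditions by their titles. The authors deposited a signal, an average read coverage per base on a linear scale, for 122001 positions from -2000 to 120000, per the file headers. BWA 0.5.9 and hg19 (GRCh37) are named in the submitters' processing notes. The gene list, the strands summed and the scale factor of each library are not given in the sources used here. All values of a library (100% in each) were whole multiples of 1 step size (to within 1e-06 of a step), and successive differences had their lowest autocorrelation (-0.42 to -0.37) at a lag of 250 bp, so summed signal divided by the step and by 250 was taken as reads (12003109 to 25795781 per profile, with reads in overlapping profiled genes counted repeatedly). PCR duplicates cannot be recognised, so intervals (95%, Wilson for shares, Poisson for ratios) cover counting error only.

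Means over 500-bp bins, least squares lines, shares of the sum from 0 to 99999, ratios to Untreated without a pseudocount, and crossings were computed in Python 3.11.15 with numpy 2.4.6. Distances were named by rule: the end bins, the highest and lowest ratio per library, the 5-kb stretches, the bins at crossings, and the 2 bins with the highest and the 2 with the lowest shared departure. Relations with time used exact permutation tests over 6 libraries. Alternatives were other scalings, background subtraction (each profile's lowest 1-kb mean, which started at -2000 bp in Untreated and at 118000 or 119000 bp in the UV libraries), medians, other bins, runs and bounds (12 to 28 kb), and leaving out each UV library. The code was tested on 5 simulated profiles. The window and measures were chosen with earlier results of these data known.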

Additional observations from a re-analysis of the deposited data

Results flagged for a closer look

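In the far stretches of the window the deposited difference from Untreated had opposite directions at different times after UVC. At 20 to 25 kb the log2 ratio was -0.0087 in UV-2h, but 0.095 in UV-5h, 0.088 in UV-8h, 0.15 in UV-10h, 0.21 in UV-12h and 0.056 in UV-24h. At 25 to 30 kb it was -0.20 in UV-2h, -0.020 in UV-5h and -0.0032 in UV-8h, but 0.079 in UV-10h, 0.14 in UV-12h and 0.043 in UV-24h. Counting standard errors were 0.0021 to 0.0026, so the value of UV-8h at 25 to 30 kb is within counting error of 0. With 1 library per time, the difference between times was not tested. After scaling to own sum none of these 12 ratios was negative.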

How the results depend on the processing

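Lists of 6 values run from UV-2h to UV-24h, and lists of 7 start with Untreated. At this depth the counting intervals were narrower than most changes made by another setting. No paired analysis was possible because every group was a single library.

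The slope of the log2 ratio was negative in all 6 UV libraries under its 4 alternatives, and its rho with time was 1 with background subtracted and from 12 to 28 kb. Bins of 1000 and 2000 bp regroup the same values, and 12 to 28 kb is part of the same window. Those settings could hardly have changed the sign. Background subtraction gave -0.074, -0.043, -0.033, -0.026, -0.022 and -0.0067. The window from 12 to 28 kb gave -0.041, -0.024 and -0.018 at 2, 5 and 8 h, and within its error elsewhere. The window log2 ratio became 0.32, 0.29, 0.22, 0.22, 0.22 and 0.041 scaled to own sum, 0.66, 0.68, 0.61, 0.66, 0.71 and 0.019 with background subtracted, and 0.086, 0.14, 0.12, 0.18, 0.22 and 0.059 with medians. Scaled to the far upstream kilobase it was 0.38, 0.062, -0.17, -0.053, 0.10 and -0.17, thus reversed at 8, 10 and 24 h. This scaling multiplies a library's signal by a factor, which adds a constant to its log2 ratio. From 12 to 28 kb it was 0.11 at 2 h and within its interval at later times. The window share (%) was 21.8, 27.2, 26.6, 25.5, 25.4, 25.3 and 22.4 without the first kilobase, 23.9, 36.3, 35.1, 31.9, 31.8, 32.0 and 26.3 with background subtracted, and 16.96, 21.0, 20.7, 19.8, 19.8, 19.8 and 17.4 from 12 to 28 kb.

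Crossings (kb) on deposited values became 27, 33, 44.5, 53, 58.5 and 23 with background subtracted. Those of scaled profiles with background subtracted were 27, 31, 30.5, 32, 34 and 42.5, of which those at 2 and 24 h lay within the unsubtracted range. Other run lengths and bins of 1000 bp left both kinds within their ranges, which were wide at the later times. As deposited at 24 h, 3 bins in a row gave 46 kb and bins of 1000 bp gave 54 kb, against 65.5 kb. Scaled at 12 h, 10 bins in a row gave 41.5 kb, against 37 kb. The relation of the deposited crossing with time had a rho of 0.14 (exact permutation p = 0.80) with background subtracted and 0.64 (exact permutation p = 0.18) with scaled profiles. Without UV-24h, an alternative added after the data were seen, these became 1 (exact permutation p = 0.017) and 0.97 (exact permutation p = 0.033). Leaving out each UV library in turn kept rho at 1 for the slope and the deposited crossing (exact permutation p = 0.017 each). With a rho of 1 over all 6 libraries no other outcome was possible, so this adds no support. That p is the smallest that the rank test allows with 5 libraries. For the window share rho ran from -1 to -0.70, and it passed 0.05 only without UV-12h (rho -1, exact permutation p = 0.017). UV-12h was the library that broke the order, so that value is no test of the relation.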
